A study of Homo sapiens with 9 samples.

Results

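The genes described here are 10 genes that many human cells induce when oxygen is scarce, EGLN3, VEGFA, CA9, ADM, NDRG1, BNIP3, ANKRD37, SLC2A1, LDHA and PGK1. They were found by name, as every probe on the microarray whose gene name was one of the 10, which gave 12 of 58201 probes and 10 of 43395 genes. Of these, 11 probes of 9 genes passed the filter on dim probes, and CA9 did not. Total RNA came from stable transfectants of T47D, a human cell line established from a luminal breast cancer, with 3 lines, 3 single-color arrays per line and 9 arrays in all. VC1 (T47D-VC1) cells carry the empty vector. PA6 (T47D-PA6) cells carry a vector with the full-length cDNA of PTH-AS, a long noncoding RNA from the neighborhood of the parathyroid hormone gene, and PA5 (T47D-PA5) cells carry an incomplete cDNA of it. The lines that carry an insert were made with the pTARGET expression vector and selected with G418, and a single selected cell line was then used, so that the insert and the selected line cannot be told apart. The methods describe no exposure to low oxygen and no other treatment in any line. The array design had 0 probes named for PTH-AS, so the insert's own RNA was not checked.

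When oxygen is plentiful, prolyl hydroxylases mark the α subunit of hypoxia-inducible factor (HIF) for destruction, with the VHL protein as the recognition subunit. When oxygen is scarce the α subunit persists, pairs with ARNT, and binds DNA that holds the core letters ACGTG or GCGTG. Its targets let cells take up glucose and make ATP by glycolysis, buffer acid, remove mitochondria and attract blood vessels, and one of them, EGLN3, is itself a prolyl hydroxylase. Many solid breast tumors express these genes in poorly supplied regions.

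The replicates were not all run together. Replicate 1 of every line, called the first arrays below, lay on slide 1 in an earlier scan run. Replicates 2 and 3, called the later arrays, lay on slides 2 and 3 in a second run, with replicate 2 of VC1 and PA5 on slide 2 and the other 4 later arrays on slide 3. The sources do not say whether replicates are separate cultures, so the p-values measure only the spread between these arrays, which may be technical. Over all genes the median absolute log2 difference was 0.085 to 0.11 between the later arrays of a line and 0.21 to 0.27 between its first array and either later one. For the 9 members that could be tested, the median difference between the later arrays of a line was 0.046 to 0.10, whereas the median difference of the first from the later arrays was 0.39 in VC1, 1.22 in PA5 and 1.41 in PA6. All 9 luminal markers looked at, such as KRT8, GATA3 and ESR1, were well above background. Of 8 markers of basal, blood, endothelial and fibroblast cells with a probe, no array gave a signal well above background for KRT5, PECAM1 and COL1A2, and the other 5 were above it on at least 1 array. The summed signal of this second list was 352 to 449 on the first arrays and 306 to 417 on the later ones. By line it was 306 to 352 in PA6 and 395 to 449 in VC1 and PA5. Of single markers, COL1A1 (log2 difference -0.50 ± 0.10 SE, limma adjusted p = 0.0198) and the luminal PGR (-1.07 ± 0.17, adjusted p = 0.00724) were lower in PA6 than in VC1. The part of these markers in the results below was not tested. In RNA from whole cultures, fewer cells that express a gene and less RNA per cell cannot be told apart.

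Promoter stretches of members are shown where they hold ACGTG, which is among the core letters that HIF binds. They were chosen by these letters alone, not by how the signals moved. RefSeq promoter sequences of build GRCh38.p14 were at hand for 8 of the 10 members, not for VEGFA and NDRG1. In the 250 bases before the start site, read on both strands, ACGTG was found in 5 members (ANKRD37, BNIP3, CA9, LDHA and PGK1), and in 18.5% of all 35116 promoter windows. GCGTG was found in 4 members (ADM, BNIP3, LDHA and PGK1), and in 32.2% of all windows. Neither was found in these windows of EGLN3 and SLC2A1. The stretches that hold ACGTG are printed 5′ to 3′ on the strand of the gene, with every match in capitals. CACGT is ACGTG read on the other strand, and CACGTG holds a match on each strand, which overlap and were both counted.
ANKRD37: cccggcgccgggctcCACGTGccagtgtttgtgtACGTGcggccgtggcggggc
BNIP3: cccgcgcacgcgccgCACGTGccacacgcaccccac
CA9: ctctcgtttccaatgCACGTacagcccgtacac
LDHA: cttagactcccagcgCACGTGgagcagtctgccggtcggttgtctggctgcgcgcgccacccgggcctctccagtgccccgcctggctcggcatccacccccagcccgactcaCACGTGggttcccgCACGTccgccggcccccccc
PGK1: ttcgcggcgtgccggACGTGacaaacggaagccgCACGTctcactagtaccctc
The ANKRD37 stretch is chr4:185396664-185396717 on the plus strand, with 3 matches. The BNIP3 stretch is chr10:131982037-131982072 on the minus strand, with 2 matches. The CA9 stretch is chr9:35673895-35673927 on the plus strand, with 1 match that begins 18 bases before the start site. The LDHA stretch is chr11:18394363-18394509 on the plus strand, with 5 matches, and a second LDHA promoter listed by RefSeq held no ACGTG. The PGK1 stretch is chrX:78104031-78104084 on the plus strand, with 2 matches. A match in letters does not show that a factor was bound in these cells.

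The signals below are normalized intensities of single probes, for which no unit beyond the array's own scale exists, and a probe's level cannot be set against that of another probe. Among the enzymes of sugar breakdown, LDHA, which turns pyruvate into lactate, was lowest on the first array of each line. Its brighter probe (chr11:18428789-18428848, hg19, as are the probe positions that follow) read 29873 on the first and 39270 and 39206 on the later VC1 arrays, 21090 against 51024 and 47436 in PA5, and 18943 against 59539 and 60623 in PA6. The later arrays thus lay in the order VC1, PA5, PA6 and the first arrays in the reverse order. A second LDHA probe, which the files place on chromosome 9 at 14921817 to 14921876 and which may read a near-identical copy, gave 8407, 12663 and 12307, then 5920, 16244 and 14146, then 4722, 20264 and 19342 in the same order of arrays. PGK1, the glycolytic enzyme phosphoglycerate kinase, was read by a probe at chrX:77381462-77381521. It gave 25241, 39386 and 38142 in VC1, 18766, 47690 and 44327 in PA5, and 17303, 45875 and 46359 in PA6. Here too each first array was below both later arrays of its line, and the later arrays of both insert lines were above those of VC1.

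SLC2A1, the glucose transporter GLUT1, showed a smaller spread. Its probe (chr1:43391874-43391933) read 1233, 1392 and 1175 in VC1, 944, 1585 and 1593 in PA5, and 967, 1548 and 1778 in PA6. In the control line the first array lay between the later ones, and in both insert lines it lay below them. CA9, a carbonic anhydrase at the cell surface that buffers acid, was dim throughout. Its probe (chr9:35677817-35679204) was well above background on all 6 later arrays, at 21.0 and 23.4 in VC1, 21.2 and 25.1 in PA5, and 45.6 and 45.9 in PA6. On the 3 first arrays it read 8.55, 2.63 and 2.63, each time not well above background, so that it failed the filter of the test, which asks for a line with all its arrays above background. Against the lowest signal well above background on those arrays, CA9 was at least 2.05-fold higher on the later arrays over all lines, and at least 1.77-fold, 1.52-fold and 3.20-fold higher in VC1, PA5 and PA6.

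BNIP3, which sits in the mitochondrial membrane and takes part in the removal of mitochondria, was read by a probe at chr10:133781881-133781940. It gave 8058, 12041 and 12138 in VC1, 4382, 17545 and 16014 in PA5, and 4644, 16328 and 16093 in PA6. The first and later arrays did not overlap in any line. ANKRD37, an ankyrin repeat protein, read 501, 651 and 631 in VC1, 279, 711 and 763 in PA5, and 367, 981 and 1014 in PA6 (chr4:186321293-186321352), again with no overlap. NDRG1, a cytoplasmic stress-response protein, had the widest spread of the tested members. Its probe (chr8:134249719-134249778) read 2322, 1790 and 1888 in VC1, 429, 2953 and 3159 in PA5, and 379, 4893 and 5584 in PA6. The first array was thus the highest of the control line and by far the lowest of each insert line.

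The secreted factors had other patterns. VEGFA, the main growth factor of blood vessels, was read by 2 probes. The brighter (chr6:43746223-43746634) gave 1225, 821 and 954 in VC1, 565, 869 and 920 in PA5, and 666, 1616 and 1568 in PA6, and the other (chr6:43753511-43753570) gave 546, 428 and 499, then 255, 453 and 444, then 312, 880 and 865. Both probes were highest on the first array in VC1 and lowest on it in the other lines. ADM, which encodes the vasodilator peptide adrenomedullin, read 24244, 10285 and 10312 in VC1, 7821, 7858 and 8020 in PA5, and 7724, 5622 and 6139 in PA6 (chr11:10328780-10328839). It was the only member whose VC1 signals were all above those of both other lines. EGLN3, the oxygen-sensing prolyl hydroxylase, was dim (chr14:34393422-34393481), at 13.4, 12.3 and 16.1 in VC1, 16.8, 10.2 and 9.42 in PA5, and 24.0, 56.4 and 59.1 in PA6. It was well above background on all 3 PA6 arrays, on 1 VC1 array and on 0 PA5 arrays.

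**Figure D1:**
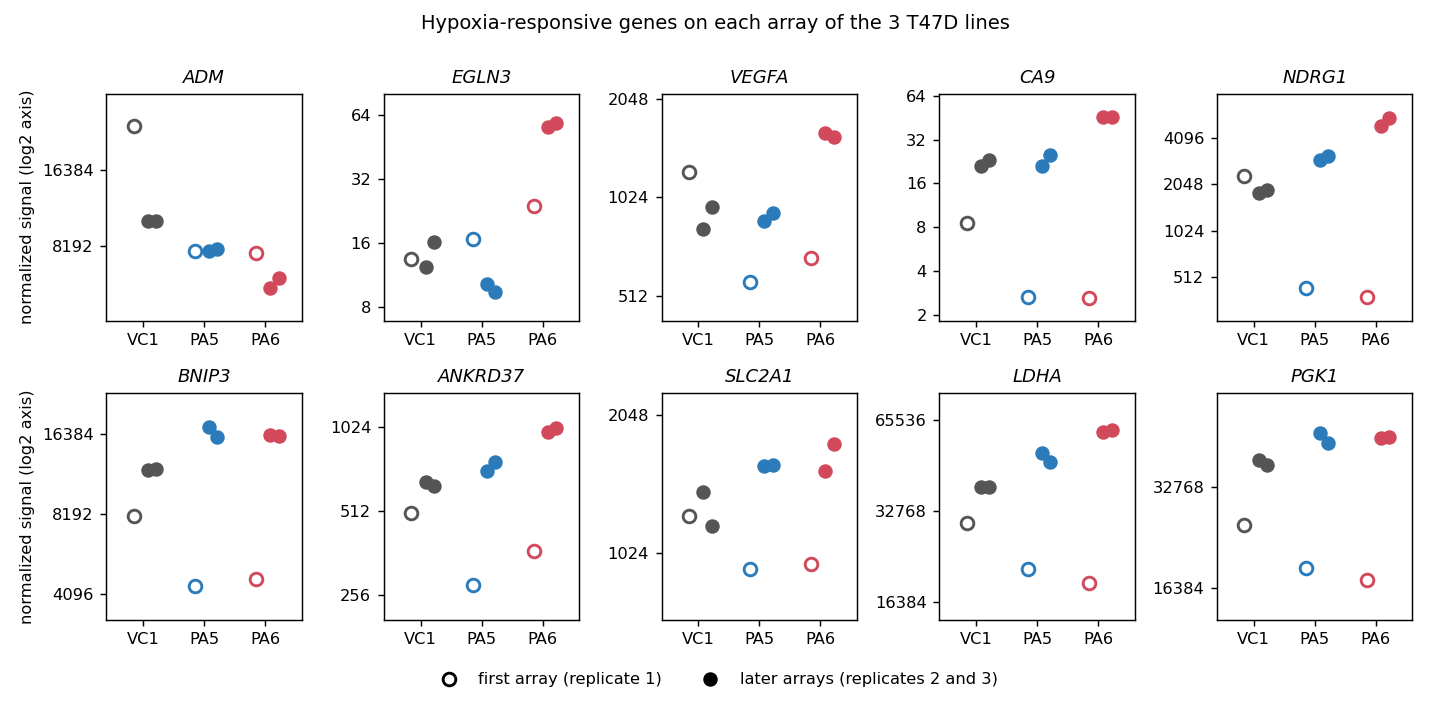
Normalized signal of each of the 10 genes on a log2 axis with its own range per panel, in VC1, PA5 and PA6, with the first array of a line as an open circle and the later arrays as filled circles. LDHA, PGK1, BNIP3 and ANKRD37 have the first array lowest in every line, ADM has its highest value of 24244 on the first VC1 array, and CA9 was not well above background on the first arrays.

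The first arrays were compared with the later ones to see how far these genes differed between them. The run, the slide and any difference between cultures cannot be told apart here. In a limma fit with the line as a term, 4 of the 9 tested members were lower on the first arrays and 0 were higher. By the same test, 7.45% of all 20106 genes were lower and 6.73% were higher. BNIP3 was 2.72-fold lower on the first arrays (log2 difference -1.44 ± 0.23 SE, adjusted p = 0.0136). PGK1 was 2.16-fold lower (-1.11 ± 0.14, adjusted p = 0.00874), LDHA 2.13-fold lower (-1.09 ± 0.20, adjusted p = 0.0185) and ANKRD37 2.09-fold lower (-1.07 ± 0.20, adjusted p = 0.0181). These 4 were also the members whose first array was below both later arrays in all 3 lines, which held for 15.6% of all genes. The other 5 did not pass. NDRG1 had the most negative log2 difference, -2.09 ± 0.65 (adjusted p = 0.0720), SLC2A1 had -0.53 ± 0.15 (0.0546), VEGFA -0.48 ± 0.27 (0.257), EGLN3 -0.19 ± 0.32 (0.712) and ADM 0.54 ± 0.20 (0.115). ADM was the only member past an unadjusted p of 0.05 in the higher direction. The median log2 difference was -1.07 over the members and -0.016 over all genes. The count depended on single arrays. Without PA6 replicate 1 it was 2, PGK1 and BNIP3, and without VC1 replicate 1 it was 7, with NDRG1, SLC2A1 and VEGFA added. On slides 1 and 3 alone no gene of the array passed in either direction, and the 4 members had adjusted p-values of 0.0737 to 0.0868 at log2 differences of -1.12 (PGK1), -1.46 (BNIP3), -1.13 (LDHA) and -1.11 (ANKRD37).

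The size of this difference was not the same in the 3 lines. An F test of the line by run interaction passed for 8 of the 9 members, while 18.6% of all genes passed. Each line has only 1 first array, so its error is taken from the spread of the later pairs. The largest contrast was in NDRG1, whose log2 difference of the first from the later arrays was 0.34 in VC1, -2.83 in PA5 and -3.79 in PA6 (SE 0.11 each, adjusted p = 0.00376). VEGFA moved from 0.47 in VC1 to -0.66 in PA5 and -1.26 in PA6 (SE 0.11, adjusted p = 0.0122). In BNIP3, ANKRD37, LDHA and PGK1 (adjusted p = 0.0102, 0.0124, 0.0110 and 0.0226) the difference was -0.35 to -0.62 in VC1, -1.22 to -1.94 in PA5 and -1.41 to -1.80 in PA6. ADM had 1.24 in VC1, -0.022 in PA5 and 0.39 in PA6 (SE 0.081, adjusted p = 0.0122). Its differences in VC1 and PA6 were positive, but both insert lines again lay below VC1. EGLN3 also passed (adjusted p = 0.0193), but its PA5 signals were all near background and give no difference in that line. In VC1 only 1 array, a later one, was above background for EGLN3. Thus 7 calls rest on measured signals in every line. SLC2A1 did not pass, with -0.053, -0.75 and -0.78 (SE 0.14, adjusted p = 0.0792). Without PA5 replicate 2, or without PA5 replicate 3, 5 members passed.

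**Figure D2:**
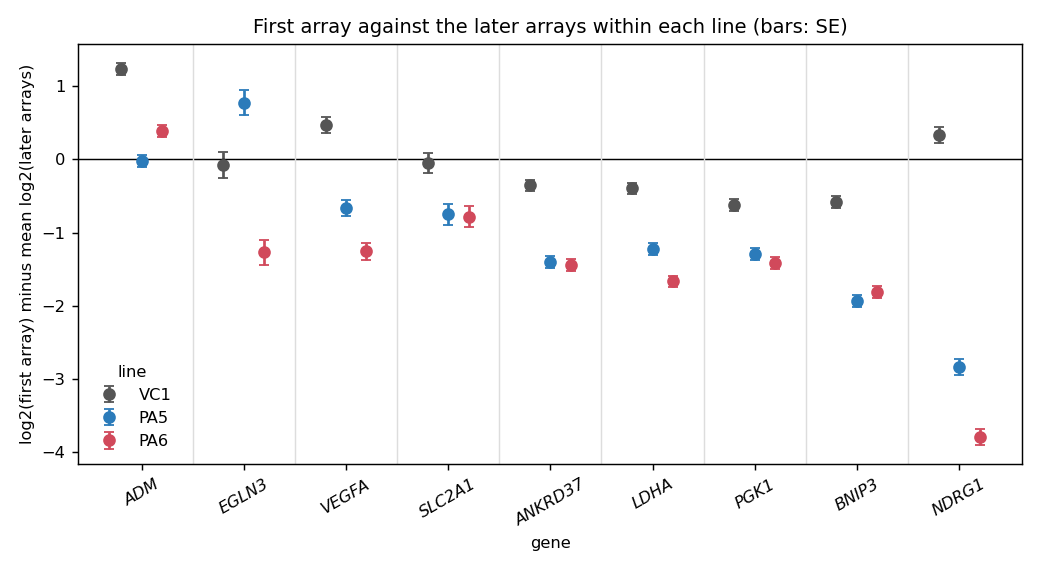
Log2 signal of the first array minus the mean log2 signal of the later arrays for the 9 tested members in each line, with the SE from the fit as bars. PA5 and PA6 lie below VC1 for each of ADM, VEGFA, SLC2A1, ANKRD37, LDHA, PGK1, BNIP3 and NDRG1, and NDRG1 reaches -3.79 in PA6. The EGLN3 point of PA5 rests on signals not above background, and that of VC1 has only 1 array above it, a later one.

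Over all 9 arrays, few of these genes passed in a comparison of lines. This fit held no term for the run, so the difference between first and later arrays was part of its spread. In PA6 compared with VC1, 1 of the 9 members was higher, EGLN3, and 4.69% of all genes were higher. Its log2 difference was 1.64 ± 0.36 (adjusted p = 0.0267), and the PA6 signals did not overlap those of VC1, which held in this direction for 13.1% of all genes. EGLN3 passed the filter only through PA6, the line in which it was high, and 1 of the 3 VC1 arrays was above background, so the size of this difference is uncertain. In PA6 compared with PA5 EGLN3 was again the only member to pass (adjusted p = 0.0159), and 3.65% of all genes were higher. With 0 PA5 arrays above background only a bound can be given, at least 3.21-fold for PA6 over PA5. The study listed EGLN3 among genes that it chose from these same arrays, so the result is not independent of that choice. The call against VC1 was lost without VC1 replicate 1 (adjusted p = 0.0522), replicate 2 (0.0848) or replicate 3 (0.0698) and without PA6 replicate 2 (0.0956) or replicate 3 (0.0968), and with the slide as a block (0.0622). With a normexp background correction the log2 difference of this dim probe was 0.52 (adjusted p = 0.0273). The call against PA5 was lost without PA5 replicate 2 (0.0630) or replicate 3 (0.0660) and without PA6 replicate 2 (0.0668) or replicate 3 (0.0646).

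ADM, with a log2 difference of -1.09 ± 0.31 in PA6 compared with VC1, did not pass (adjusted p = 0.0603), although all 3 PA6 signals were below all 3 VC1 signals, which held in this direction for 17.8% of all genes. It passed in 8 of 22 recomputed fits, which were the 75th percentile shift, normexp, the intensity trend, the replicate, slide and scan run blocks, the later arrays alone, and the fit without VC1 replicate 1, the highest array (log2 difference -0.68). Their adjusted p-values were 0.00155 to 0.0483. With the slide as a block ADM passed and EGLN3 did not. In PA5 compared with VC1, limma called 0 of the 9 members, with 1 (ADM, -0.79 ± 0.31) at an unadjusted p under 0.05, and the methods' t-test also called 0 after adjustment. By limma 1.67% of all genes passed in either direction. For the other 7 members, VEGFA, NDRG1, BNIP3, ANKRD37, SLC2A1, LDHA and PGK1, the log2 difference of PA6 from VC1 lay between -0.014 and 0.28. The intervals were wide. For NDRG1 the 95% interval ran from -2.35 to 2.62, for PGK1 from -1.08 to 1.05 and for SLC2A1 from -0.48 to 0.74.

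The line differences were also taken within each run, as values with no test, since the first run has 1 array per line. Among the first arrays, 8 of 9 members were lower in PA6 than in VC1, with EGLN3 as the exception, and among the later arrays 8 of 9 were higher, with ADM as the exception. NDRG1 had a log2 difference of -2.62 among the first arrays and 1.51 among the later ones. VEGFA had -0.88 and 0.85, BNIP3 -0.79 and 0.42, LDHA -0.66 and 0.61, and ANKRD37 -0.45 and 0.64. In all, 7 members had a negative difference in the first run and a positive one in the second, which held for 20.0% of all genes. EGLN3 kept its sign, with 0.84 and 2.03, and so did ADM, with -1.65 and -0.81. EGLN3 was above background on only 1 VC1 array, a later one. In PA5 against VC1, 7 members turned from negative to positive, NDRG1 from -2.43 to 0.73 and BNIP3 from -0.88 to 0.47, beside 20.3% of all genes. ADM stayed negative, with -1.63 and -0.38, and EGLN3 was not above background in PA5. The comparisons with VC1 share the control arrays. Between PA6 and PA5, for the 8 members other than EGLN3, the first arrays differed by -0.18 to 0.40 and the later ones by -0.43 to 0.83.

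A fit to the 6 later arrays alone gave many more calls, with 2 arrays per line. In PA6 compared with VC1, 7 of 9 members were higher and 1, ADM, was lower, while 17.2% of all genes were higher and 19.9% lower. The higher members were EGLN3 (2.03 ± 0.14, adjusted p = 0.000987), NDRG1 (1.51 ± 0.089, 0.000655), VEGFA (0.85 ± 0.091, 0.00306), ANKRD37 (0.64 ± 0.065, 0.00265), LDHA (0.61 ± 0.062, 0.00265), BNIP3 (0.42 ± 0.067, 0.00898) and PGK1 (0.25 ± 0.064, 0.0346). EGLN3 passed the filter only through PA6, where it was high, and 1 later VC1 array was not above background. The size of its difference is therefore uncertain. In PA5 compared with VC1, 3 were higher, NDRG1 (0.73), BNIP3 (0.47) and LDHA (0.33), and ADM was lower (-0.38), while 11.7% of all genes were higher and 9.73% lower. In PA6 compared with PA5, 5 were higher, VEGFA (0.83), NDRG1 (0.78), ANKRD37 (0.44), LDHA (0.29) and EGLN3, for which PA5 gives no level, and ADM was lower (-0.43), while 17.0% of all genes were higher and 18.6% lower. Both later PA6 arrays lay on slide 3, which held only 1 array of each other line, and in PA6 against VC1 the first run, which this fit leaves out, had the opposite sign for 7 of the 9 members.

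**Figure D3:**
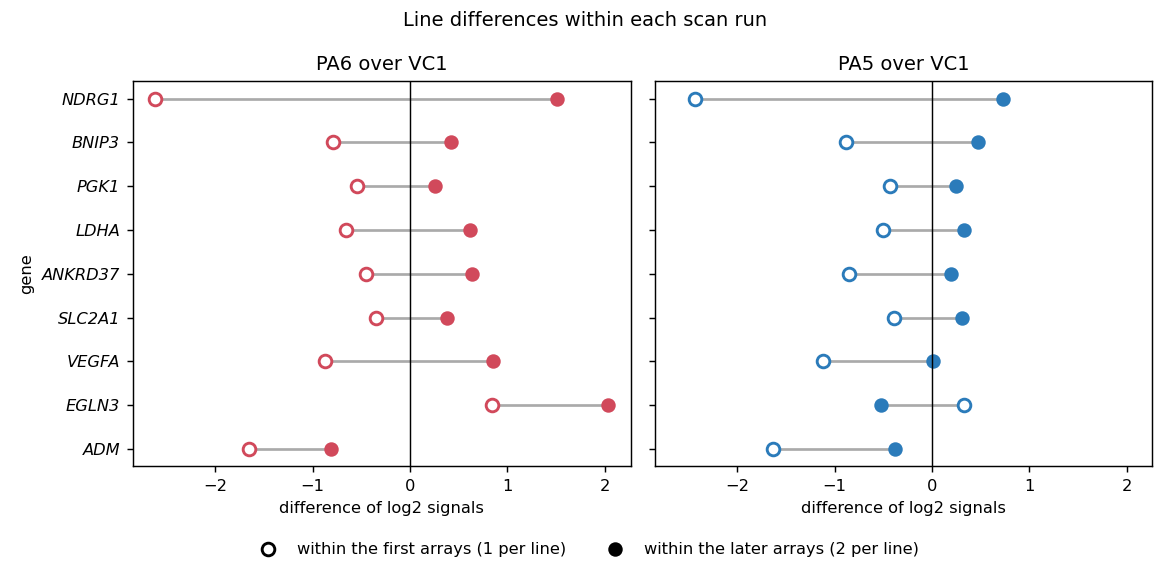
Difference of the log2 signal of PA6 (left) and PA5 (right) from VC1 for the 9 tested members, among the first arrays (open circles, 1 array per line) and among the later arrays (filled circles, 2 per line). In both panels 7 members lie below 0 among the first arrays and above 0 among the later ones, and ADM stays below 0 in both runs.

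Other genes of the pathway were counted from fixed lists. Of 22 tested genes of glycolysis and lactate handling outside the members, 13 were lower on the first arrays and 0 were higher by limma (0 at an unadjusted p under 0.05), all 22 had a negative log2 difference, and the median was -0.48. The 5 called genes with the largest differences were PDK1 (-2.17 ± 0.22), the kinase that inhibits pyruvate dehydrogenase, ALDOC (-1.60 ± 0.29), HK2 (-1.57 ± 0.28), which phosphorylates glucose, PFKFB4 (-1.02 ± 0.15) and PFKP (-1.02 ± 0.094). In no line comparison over all 9 arrays did limma call any of these 22 genes, with 1 at an unadjusted p under 0.05 in each. On the later arrays alone, 12 were higher and 1 lower in PA6 than in VC1, 6 were higher and 0 lower in PA5 than in VC1, and 4 were higher and 3 lower in PA6 than in PA5, to be read against the shares of all genes given above for these fits. Of 34 tested hypoxia targets of other kinds, 21 were lower on the first arrays and 1 was higher, with a median of -0.55. SPAG4 (-1.40 ± 0.25), MIR210HG (-1.19 ± 0.25), the host transcript of the hypoxia-induced miR-210, VLDLR (-1.09 ± 0.11) and KDM3A (-1.04 ± 0.14) had the largest differences of the called genes measured on both sides. PPFIA4, also called, was not well above background on the first arrays of the insert lines, so that only bounds can be given there, at least 15.9-fold for later over first in PA5 and at least 10.1-fold in PA6, beside a log2 difference of -0.97 in VC1. STC2, which encodes a secreted glycoprotein and is named after its values were seen, was the gene that was higher (0.70 ± 0.12). The count lower of this second list was 11, 13 and 12 without PA6 replicate 1, 2 and 3, and 12 and 13 without PA5 replicate 2 and 3. In these fits 560 to 789 of all genes were lower, beside 1497 over all arrays, and the list median was -0.54 to -0.50. The count was 23 without VC1 replicate 1, 18 without VC1 replicate 2, and 15 without VC1 replicate 3 or PA5 replicate 1. On the later arrays alone, 18 of the 34 were higher and 3 lower in PA6 than in VC1, 11 were higher and 2 lower in PA5 than in VC1, and 11 were higher and 9 lower in PA6 than in PA5. On slides 1 and 3 alone both counts were 0, as for all genes, and the medians were -0.54 and -0.58.

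Of 9 tested genes of oxygen sensing, 2 passed between the first and later arrays, beside 14.2% of all genes. EGLN1, the main prolyl hydroxylase of HIF and itself a HIF target, was lower on the first arrays (-0.64 ± 0.10, adjusted p = 0.0131) and HIF3A was higher (0.55 ± 0.12, adjusted p = 0.0287), while HIF1A had 0.15 ± 0.094, EPAS1 -0.018 ± 0.18, ARNT -0.12 ± 0.078 and VHL 0.21 ± 0.075, none of which passed. HIF3A was no longer called in several fits without 1 array, and in these 9 genes the count higher was 0 to 2 and the count lower 1 to 2. In the line comparisons ARNT was lower in PA6 than in VC1 (-0.53 ± 0.11) and than in PA5 (-0.79 ± 0.11), and CITED2, which competes with HIF for a coactivator, was higher in PA6 than in PA5 (0.81 ± 0.18). Of the 34 other hypoxia targets, 2 were higher and 2 lower in PA6 than in VC1, beside 4.69% higher and 5.34% lower of all genes. In PA5 compared with VC1, 1 was higher, beside 1.37% of all genes. In PA6 compared with PA5, 1 was higher and 3 lower, beside 3.65% higher and 6.06% lower of all genes. STC1, a secreted glycoprotein, stayed near background on all 3 VC1 arrays, so only bounds can be given, at least 7.75-fold for PA5 over VC1 and at least 3.46-fold for PA6 over VC1. It was above background on every PA5 and PA6 array, and was lower in PA6 than in PA5 (-1.16 ± 0.29, limma adjusted p = 0.0392). EFNA3 had log2 differences of -0.69 ± 0.15 in PA6 over VC1 and -1.06 ± 0.15 in PA6 over PA5, TFRC, the transferrin receptor, had -0.64 ± 0.15 in PA6 over VC1, and HILPDA, a lipid droplet protein, had 0.78 ± 0.16 in PA6 over PA5, each past the threshold.

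Lists of other cell states were counted beside these. Of 15 genes of protein and amino acid stress, limma called 0 between the first and later arrays (1 at an unadjusted p under 0.05), with a median of -0.014. This fit averages over the lines, and some genes moved in opposite directions in them. CHAC1 had a log2 difference of the first from the later arrays of -0.30 in VC1, 2.13 in PA5 and -0.090 in PA6. DNAJB9 had 0.55, -0.24 and -0.38. In PA6 compared with PA5, 7 of the 15 were higher, led by CHAC1 (2.15 ± 0.50), DDIT3 (1.63 ± 0.23) and TRIB3 (1.14 ± 0.17), beside 3.65% of all genes. The size for CHAC1 depended on the run. Its PA5 signal was 1211 on the first array and 276 as the mean of the later ones, beside 1920 and 2044 in PA6. In PA6 compared with VC1, 3 were higher, DDIT3 (1.21 ± 0.23), CEBPB (0.70 ± 0.14) and HERPUD1 (0.56 ± 0.14), beside 4.69% of all genes. Of 10 immediate early genes, JUN was higher on the first arrays (0.85 ± 0.13) and IER3 lower (-0.52 ± 0.13), and the count lower was 0 to 1 without 1 array. Of 12 genes of proliferation, 3 were lower on the first arrays, CCNB1 (-0.51 ± 0.12), CDK1 (-0.49 ± 0.10) and TOP2A (-0.47 ± 0.086), with a list median of -0.28. This count rested on single arrays, with 9 lower without PA5 replicate 1, 0 without PA6 replicate 1, 2 without VC1 replicate 2, and 1 without VC1 replicate 1 or 3, PA5 replicate 2, or PA6 replicate 2 or 3. Without VC1 replicate 1, 2 were higher. Of the 9 luminal markers, limma called 0 between first and later arrays (1 at an unadjusted p under 0.05).

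**Figure D4:**
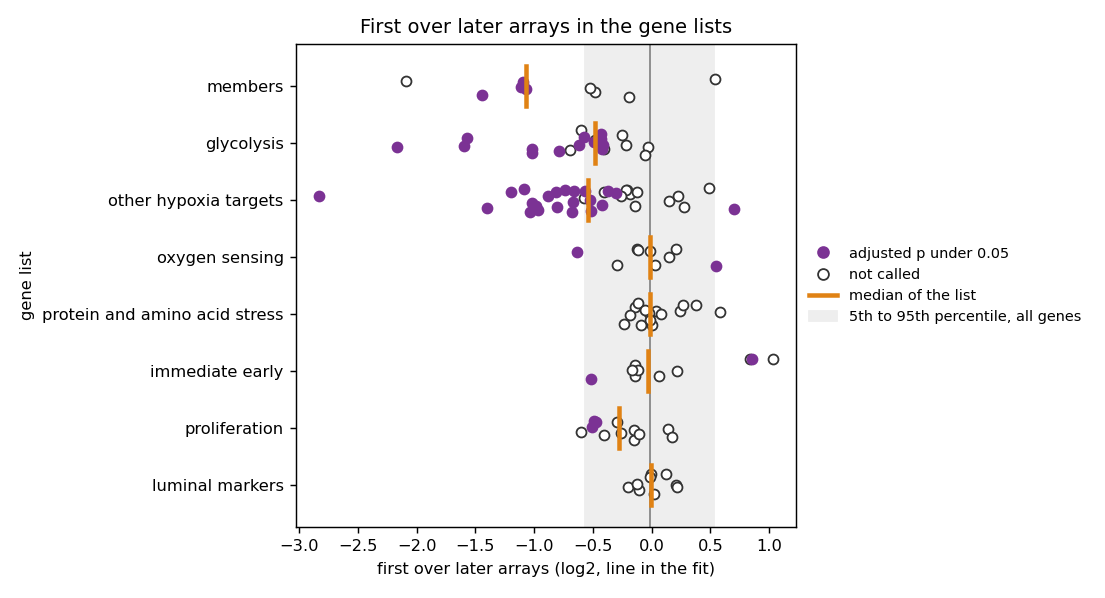
Log2 difference of the first from the later arrays for each tested gene of the lists, with filled circles for an adjusted p under 0.05, orange bars at each list's median and a grey band from the 5th (-0.56) to the 95th percentile (0.53) of all genes. The medians of the members (-1.07), of the other hypoxia targets (-0.55) and of glycolysis (-0.48) lie left of those of the other lists shown.

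To see which genes followed the members over the arrays, the median of the members' log2 values, each centered on its own mean, was taken as a profile. It stood at -0.28, 0.069 and 0.050 on replicates 1, 2 and 3 of VC1, at -0.84, 0.26 and 0.32 in PA5, and at -0.73, 0.65 and 0.68 in PA6. ANKRD37 (root mean square difference 0.098 on the log2 scale over 9 arrays), LDHA (0.11) and PGK1 (0.17) were the members closest to it, and NDRG1 (0.83), EGLN3 (0.89) and ADM (0.90) the farthest. The 5 genes outside the members that were closest were lnc-ANGPT2-2 (0.11), PFKFB4 (0.11), ZNF160 (0.12), KDM3A (0.13) and P4HA1 (0.13). The distance was 0.56 for the median gene, and would be 0.51 for a gene with the same signal on every array. The members make up the profile, so their own closeness is in part built in. PFKFB4, KDM3A, a histone demethylase, and P4HA1, a collagen prolyl hydroxylase, were also in the lists above.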

How the data were processed

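Per the labels and methods, RNA of 3 T47D lines (3 arrays each) was labeled with one dye and hybridized to Agilent SurePrint G3 arrays. The authors deposited spot intensities from Feature Extraction (version 9.5.1.1 per the labels, 10.7.1.1 per the file headers), corrected for background and for trends within each array, plus a table of quantile-normalized intensities. That table correlated at 0.999997 or more, on the log2 scale, with the values computed here.

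From each array of 62976 spots, 60901 were not controls. Outlier spots (46 to 117 per array) were dropped, no spot was saturated, replicate spots were averaged as log2 values, and arrays were quantile-normalized. Testing was limited to probes with a signal well above background throughout 1 or more lines, leaving 26171 probes and 20106 genes, each read from its brightest tested probe. From 44.0% to 48.0% of probes were well above background on an array, and the number of arrays limits precision. Gene symbols were updated through RefSeq (GRCh38.p14), and probe positions are hg19 as deposited.

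Lines were compared with limma 3.58.1 (lmFit, eBayes) in R 4.3.3, in 1 fit without a term for the run and with 6 residual degrees of freedom. First and later arrays were compared with the line in the fit (5), and the interaction in a fit of 6 group means (3). Benjamini-Hochberg adjustment ran over all genes tested, with a threshold of 0.05. Where no array of a group was above background, folds are bounds against the lowest signal above background. The fits were tested on simulated data. The members, lists and tests were chosen with earlier results of these data known. All members were named, with up to 5 genes of each list by size among those called between runs and up to 3 in each line comparison. Alternatives were another normalization, background correction, filters, the authors' table, blocks for slide, run and replicate, other tests, and leaving out arrays.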

Additional observations from a re-analysis of the deposited data

Results flagged for a closer look

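For 8 members the difference of the first from the later arrays differed between the lines by an F test of the interaction (limma, adjusted p). The adjusted p-values were 0.00376 for NDRG1, 0.0102 for BNIP3, 0.0110 for LDHA, 0.0122 for ADM, 0.0122 for VEGFA, 0.0124 for ANKRD37, 0.0193 for EGLN3 and 0.0226 for PGK1. The first array of each line is a single array, and by the same test 18.6% of all genes passed. The PA5 signals of EGLN3 were not above background, and only 1 of its VC1 signals was. What moved the first arrays was not tested.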

How the results depend on the processing

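The counts of members called were recomputed under each alternative. In PA6 over VC1 (1 member) the count was 2 with the 75th percentile shift, normexp, the intensity trend, the scan run block or the replicate block (ADM added), 0 with no filter, with probes above background on all 9 arrays (which leaves EGLN3 out), with only the lines compared or with the methods' t-test, 1 with the slide block (ADM in place of EGLN3), 8 on the later arrays only, and 0 to 1 when each array was left out. In PA5 over VC1 (0) it was 4 on the later arrays only. In PA6 over PA5 (1) it was 0 with no filter, the stricter filter or the methods' t-test, 6 on the later arrays only, and 0 to 2 without 1 array. For first over later arrays (4) it was 3 with no filter, 5 with the 75th percentile shift or the stricter filter, 6 with normexp or the intensity trend, 0 on slides 1 and 3 only, where 0 of all genes passed in 7 arrays, and 2 to 7 without 1 array. The interaction (8 members) gave 7 to 9 under alternatives chosen after seeing the data and 5 to 7 without 1 later array.

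Of 752 recomputed log2 differences of single members, 646 kept their direction and side of the threshold, 23 fell below it, 33 passed it and 50 changed sign, 0 of them among values called over all arrays. Outside the leave-one-out fits the sign changed in PA6 over VC1 for PGK1 (0.014) and BNIP3 (-0.0019) with the 75th percentile shift, for BNIP3 (-0.0011) and NDRG1 (-0.063) with the slide block, and for PGK1 (0.25) on the later arrays only, where it also changed in PA5 over VC1 for NDRG1 (0.73), VEGFA (0.014) and ANKRD37 (0.20) and in PA6 over PA5 for PGK1 (0.0043). Without 1 array, PA6 over VC1 ranged from -0.29 to 0.62 for BNIP3, -0.093 to 0.75 for LDHA, -0.55 to 1.40 for NDRG1, -0.25 to 0.46 for PGK1 and -0.046 to 0.39 for SLC2A1. PA5 over VC1 ranged from -0.41 to 0.32 for ANKRD37, -0.33 to 0.67 for BNIP3, -0.18 to 0.46 for LDHA, -0.82 to 0.62 for NDRG1, -0.22 to 0.45 for PGK1 and -0.047 to 0.33 for SLC2A1. PA6 over PA5 ranged from -0.043 to 0.91 for ANKRD37, -0.65 to 0.60 for BNIP3, -0.27 to 0.70 for LDHA, -0.49 to 1.72 for NDRG1, -0.47 to 0.44 for PGK1 and -0.20 to 0.31 for SLC2A1. First over later arrays ranged from -0.67 to 0.35 for EGLN3. The cause of these changes was not tested. Replicate numbers were not taken as pairs, since 1 of the 9 correlations between deviations of same-numbered arrays did not exceed 0.1 (range 0.0995 to 0.337). Those of the replicate 1 arrays, which share a slide and run, were 0.21, 0.27 and 0.34. First arrays against later arrays of other lines gave -0.31 to -0.13. Deviations within a line sum to 0, so these negative values add no separate evidence. By the correlations among the replicate 1 arrays, the first arrays shared a difference from the later ones, which the main line fits did not model. EGLN3 and CA9, both dim, are limited by signal over background.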

Other observations

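With no filter on dim probes, CA9 could be tested, and its log2 difference of the first from the later arrays was -2.87 (limma, adjusted p = 0.0396), a value that rests on signals below background on the first arrays. In that fit 3 members passed, PGK1 (0.0280), BNIP3 (0.0451) and CA9, while LDHA (0.0602) and ANKRD37 (0.0583) did not. In the line comparisons without the filter, CA9 had 0.13 for PA6 over VC1, -0.53 for PA5 over VC1 and 0.66 for PA6 over PA5, none of which passed.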
